A study of Caenorhabditis elegans with 18 samples.

Results

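The core spliceosome of Caenorhabditis elegans was described here through 45 genes, chosen by name. They comprised 7 genes of the Sm ring, 7 of the U6 LSm ring, 4 for U1 and U2 snRNP proteins, 6 for SF3a and SF3b, 8 for the tri-snRNP of U4/U6 and U5, 4 for the Prp19 and related complexes, 5 for DEAH and DEAD box helicases, and 4 for second step and disassembly factors. A gene was counted in a library where a locus names it alone. By that rule 41 of the 45 genes were listed in at least 1 library, of 20570 genes listed in all.

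The spliceosome removes introns by assembling small nuclear ribonucleoproteins (snRNPs) on each intron. The U1 snRNP pairs with the 5' splice site, and the U2AF dimer binds the 3' splice site and helps U2, with its SF3a and SF3b subcomplexes, to reach the branch point. The tri-snRNP of U4/U6 and U5 then joins, ATP-driven helicases rearrange the particle, and the Prp19 complex holds the catalytic centre together.

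RNA was sequenced from embryos of 6 strains, each with 3 libraries, grown at 20 degrees and freed from synchronized adults by bleaching. N2 served as wild type, and the mutants carried rbm-5(n5119) alone, or rbm-5(n5132) alone, or uaf-1(n4588) alone, or uaf-1(n4588) together with either of the rbm-5 alleles, called here the n5119 combination and the n5132 combination. uaf-1 encodes the large subunit of U2AF, and rbm-5 encodes an RNA-binding protein named for its human homologue RBM5. Nothing in the labels says that the 3 libraries of a strain are from separate cultures, and p-values therefore cover only the spread among these libraries, which may be technical. These are bulk samples, in which fewer cells of a type and less RNA per cell cannot be told apart. The mutated genes themselves gave no check of the labels: uaf-1 had 124 to 218 FPKM in the wild-type libraries and 67.1 to 124 FPKM in those of uaf-1(n4588) (adjusted p = 0.418, limma), and rbm-5 was listed in every strain. Levels are FPKM, fragments per kilobase of transcript scaled to the library's total, summed over the transcript starts of a gene. The depth of the libraries is unknown. Yolk genes of the adult intestine summed to 0.119 to 3.88 FPKM and cuticle genes to 0.0931 to 1.55 FPKM, whereas genes of early embryos summed to 431 to 2796 FPKM and genes first transcribed in the embryo to 291 to 550 FPKM. Of 11 sperm genes, 1 was named alone, in 7 libraries at 1.11 to 2.88 FPKM, and the others were not named alone in any library. The replicate 1 libraries stood apart: their summed FPKM was 1.25e+06 to 2.07e+06, of which 21.3% to 43.7% fell on 10 starts.

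Which spliceosome genes could be read depended on how loci were named. Of the 45 genes, 10 were named alone in all 18 libraries, 18 in 10 to 17 libraries, 13 in 1 to 9, and 4 in none. Those 4 were snr-4 (SmD2 of the Sm ring), prp-3 and prp-31 (U4/U6 proteins) and prp-19 (the ubiquitin ligase of the Prp19 complex). snr-4 was not named in any library, alone or with a neighbour. sftb-1, the SF3B1 homologue, and mog-7 were listed under their sequence names T08A11.2 and F43G9.12.

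A joined name was the main other form of listing. Of 810 pairings of a gene with a library, 485 named the gene alone, 114 only together with a neighbour, and 211 not at all. At least 1 joined name occurred for 26 of the 45 genes (57.8%), against 40.9% of 18859 protein-coding genes. A neighbour on the same strand lay within 500 bases of 30 of the 45 genes (66.7%), against 35.2% of protein-coding genes, and of 24 of the 26 genes that were ever joined. sap-49, the SF3B4 homologue, was joined in 14 libraries, and rnp-2 and rnp-3, the U1A and U2B'' homologues that lie 72 bases apart, were each joined in 13. snr-1 (SmD3) and ddx-23 (the Prp28 helicase) were joined in 11 libraries each. These 5 genes therefore had singly named values in only 1 or 2 libraries and entered no test.

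lsm-3, a subunit of the LSm ring that binds the 3' end of U6 RNA, was listed with first exons at 2 places. The annotated gene spans IV:13387203-13389143 (WBcel235, plus strand), and in 7 libraries the first exon lay in it. In the other 11 libraries the lsm-3 locus had first exons only upstream, between 13385823 and 13386712, where mdt-9 (IV:13386380-13387361), a Mediator subunit gene, and Y62E10A.23 are annotated on the same strand. mdt-9 was named alone in 0 libraries. By starts the level followed the first exon: it was 633 to 3074 FPKM in the 7 libraries with a first exon in lsm-3 and 65.1 to 515 FPKM in the 11 others. By transcript ends this did not hold throughout, as starts and ends of lsm-3 differed in 9 of 18 libraries. In rbm-5(n5119), with only upstream first exons, the starts gave 119 to 174 FPKM and the ends 35.4 to 791 FPKM.

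The strains were not evenly split over these 2 forms of lsm-3. The 3 rbm-5(n5132) libraries all had the first exon in lsm-3, with 807, 761 and 754 FPKM. The 3 libraries of the n5132 combination all had only upstream first exons, with 65.1, 104 and 192 FPKM. The groups did not overlap, and the log2 change was -2.82 (SE 1.06, unadjusted p = 0.0183, adjusted p = 0.733, limma). By ends they did not overlap either but lay closer, at 65.1 to 606 FPKM in the combination and 754 to 807 FPKM in rbm-5(n5132). The part of the changed first exon in this difference was not tested.

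lsm-5 showed a steadier form of the same thing. The gene is annotated as 1 exon at V:15570380-15570655, and all 16 libraries that named it alone placed its first exon upstream, between 15569940 and 15570029, where no protein-coding gene is annotated on that strand. Its level was 214 to 637 FPKM, with a standard deviation between replicates of 0.43 on the log2 scale. Over all 45 genes, 38 of 524 starts (7.25%) lay off the annotated gene, against 4.57% of 303814 starts of all annotated genes. These 38 starts belonged to 9 genes.

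The Sm ring, the heteroheptamer around the Sm site of U1, U2, U4 and U5 snRNAs, held both the highest and the lowest values. snr-5 (SmF) had 11229, 3048 and 2401 FPKM in wild type, 2465 and 2929 FPKM in 2 libraries of rbm-5(n5119), and 4088, 3610 and 3255 FPKM in rbm-5(n5132). It was named alone in none of the uaf-1(n4588) libraries, and had 2109 FPKM in 1 library of the n5119 combination and 5267 and 2338 FPKM in 2 of the n5132 combination. snr-6 (SmE) was listed at 0 in all 15 libraries that named it, at starts and at ends alike. Among its partners, snr-3 (SmD1) was named alone in all 18 libraries at 587 to 1731 FPKM, and snr-2 (SmB) in 7 at 597 to 1324 FPKM.

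snr-3 was the steadiest Sm gene, with the 6 strain means close together. Its mean was lowest in rbm-5(n5119), at 1145 ± 489 FPKM (SD, n = 3), next lowest in wild type, at 1158 ± 193 FPKM, and highest in uaf-1(n4588), at 1483 ± 246 FPKM. Each strain overlapped wild type, and no difference between strains passed the test. snr-7 (SmG) ranged far more widely, from 165 to 10200 FPKM over 13 libraries.

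The LSm ring was read in more libraries than the Sm ring, with 6 of its 7 genes named alone in at least 10 libraries. lsm-6 was the highest, at 938 to 7026 FPKM in 11 libraries. gut-2 (LSm2) was listed at 0 in 5 of 18 libraries and reached 995 FPKM, and lsm-7 was listed at 0 in 5 of 18 and reached 3536 FPKM. lsm-4 was listed at 0 by its starts in 2 of 17 libraries, rbm-5(n5119) replicate 1 and replicate 1 of the n5119 combination. By its transcript ends the same libraries gave 135 and 221 FPKM, so an exact 0 did not mean that the locus was unread. The highest values of snr-5, snr-7, lsm-3, lsm-6, lsm-7, gut-2 and phf-5 were all in replicate 1 libraries, those with the high summed FPKM, and the part of the latter in these values was not tested. No gene was at 0 in every library of one strain and above 0 in every library of another.

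**Figure D1:**
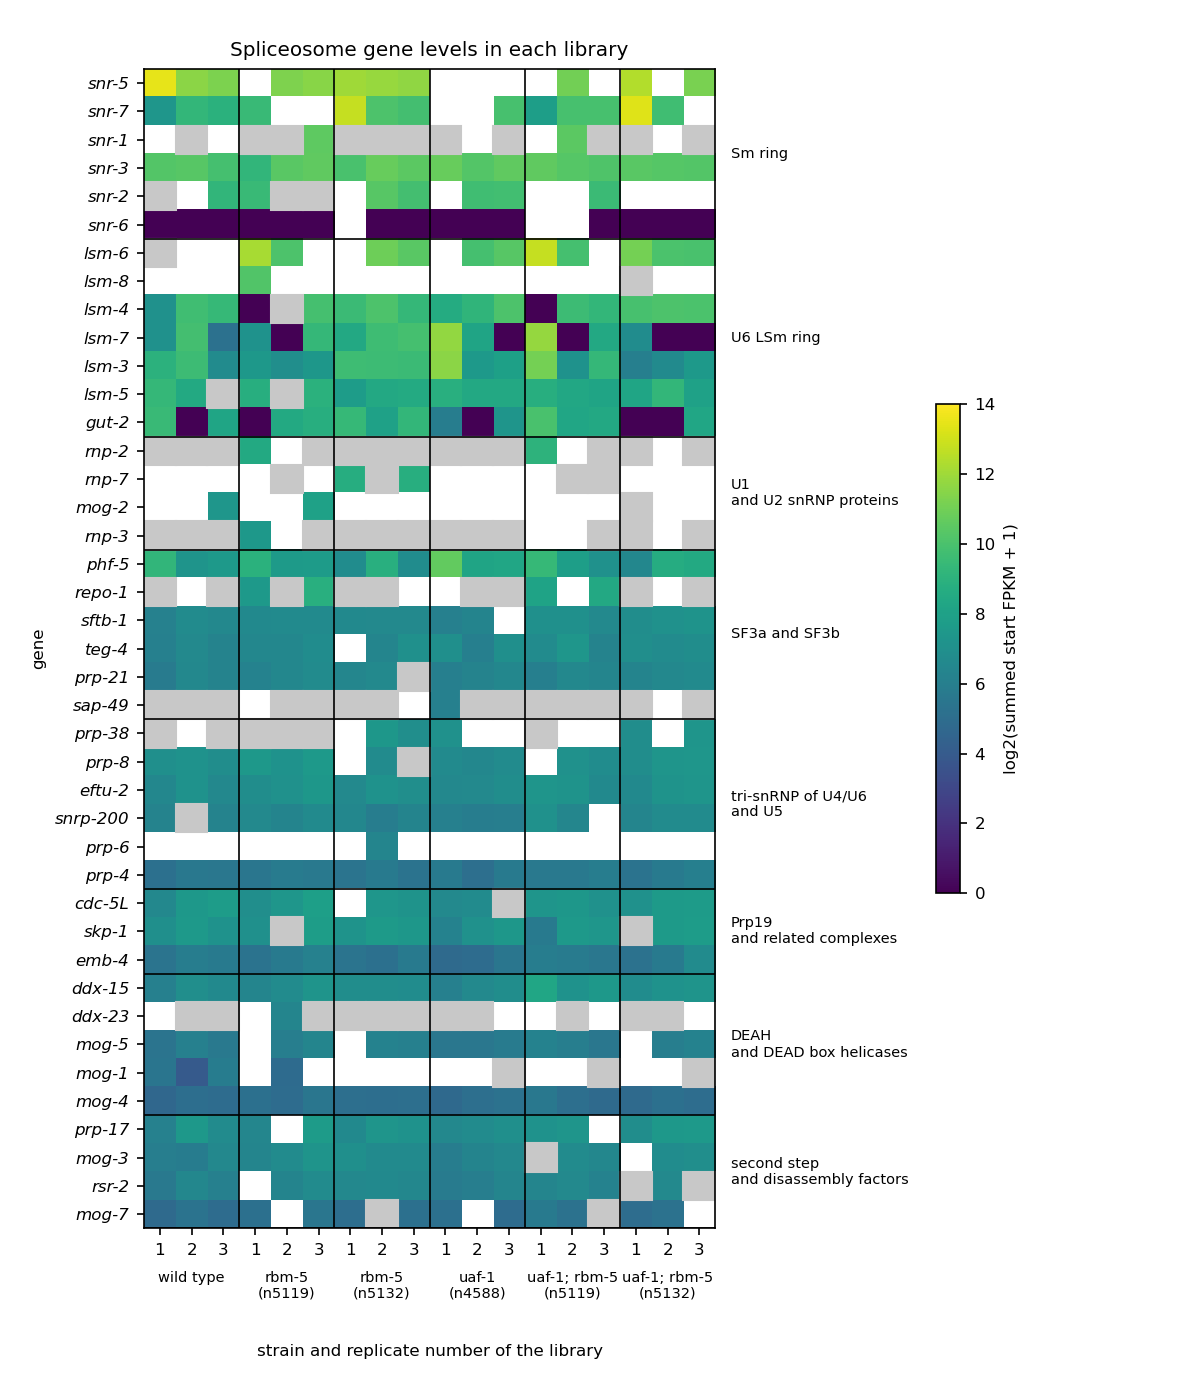
Level of each of the 41 spliceosome genes named alone in at least 1 library, as log2(summed start FPKM + 1) by colour, with genes in rows grouped by role and the 18 libraries in columns. Grey cells are genes named only jointly with a neighbour and white cells are genes not named. The Sm and LSm rows at the top hold the highest values and also the darkest cells, listed at 0, whereas the larger proteins below vary less from library to library.

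The larger proteins mostly had lower levels and less spread. The medians of the gene means were 1368 FPKM for the Sm ring and 642 FPKM for the LSm ring. For the U1 and U2 snRNP proteins, each named alone in only 1 or 2 libraries, the median was 320 FPKM. The medians were 103 FPKM for SF3a and SF3b, 104 FPKM for the tri-snRNP and 156 FPKM for the Prp19 and related complexes. For the helicases the median was 60.6 FPKM and for the second step and disassembly factors 88.8 FPKM. The highest mean per role was 367 FPKM for phf-5 of SF3b (89.1 to 1606 FPKM), 140 FPKM for prp-38 of the tri-snRNP in 5 libraries, 157 FPKM for cdc-5L, 126 FPKM for ddx-15 and 133 FPKM for prp-17. Among the U1 and U2 snRNP proteins it was 445 FPKM, for rnp-2 in 2 libraries. eftu-2, the GTPase Snu114 of the U5 snRNP, was named alone in every library at 89.2 to 170 FPKM. Among genes named alone in all 18 libraries the lowest means were 33.2 FPKM for mog-4 (the Prp2 helicase), 48.1 FPKM for prp-4 (a WD40 protein of the U4/U6 snRNP) and 50.3 FPKM for emb-4 (the Aquarius helicase). FPKM divides by length and so is given per base of transcript, but whether short and long genes compare on this scale was not tested.

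Transcript length ran with both the level and the spread of the spliceosome genes. The genes used were the 27 named alone in at least 10 libraries with a mean of at least 1 FPKM. In them the rank correlation of transcript length was -0.74 with the mean FPKM and -0.76 with the standard deviation between replicates. snr-6, of 411 bases and at 0 in all 15 libraries that named it, was left out by the minimum mean. Over 9064 genes of the series the same 2 correlations were 0.01 and -0.34. All these genes come from the same 18 libraries, and the values are descriptions across genes. The 9 of the 27 genes under 700 bases, all of the Sm and LSm rings, had a median standard deviation of 1.41 on the log2 scale. It was 0.29 for the 18 longer ones. In the whole series the medians were 1.07 for 1307 genes under 700 bases and 0.52 for 7757 longer ones.

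**Figure D2:**
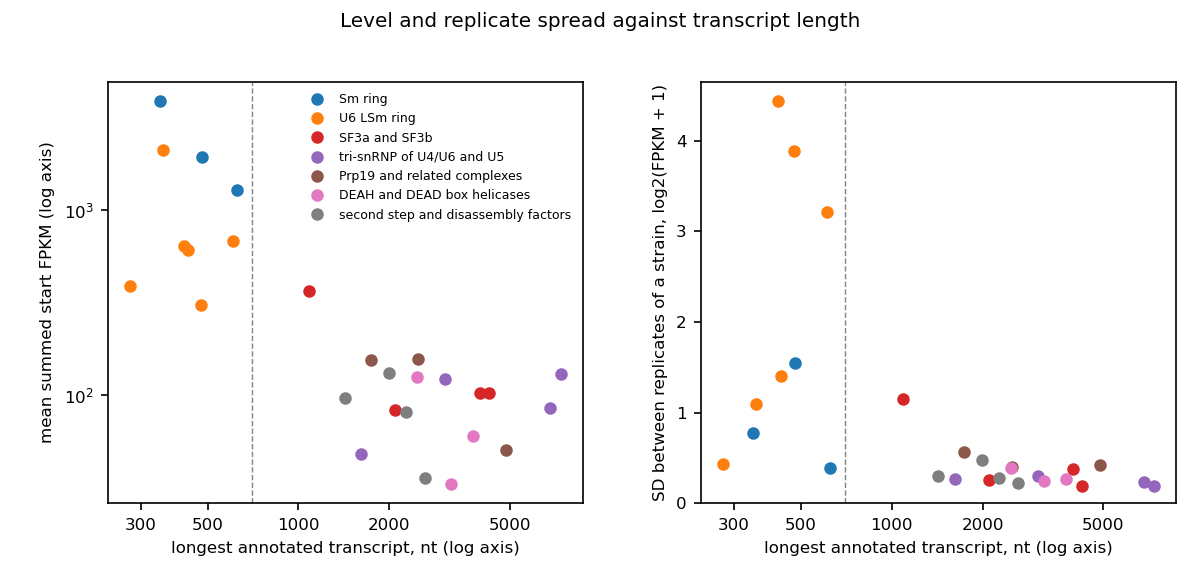
Mean summed start FPKM (left, log axis) and standard deviation between replicates of a strain on the log2(FPKM + 1) scale (right) against the length of the longest annotated transcript (log axis), 1 point per spliceosome gene, coloured by role. The dashed line marks 700 bases. Most short Sm and LSm genes lie high in both panels, up to a standard deviation of 4.44 for lsm-7. The spreads of snr-3 (0.39) and lsm-5 (0.43) are within the range of the longer genes. The longest genes, prp-8 and snrp-200, have spreads of 0.19 and 0.24. Genes named alone in under 10 libraries and snr-6, at 0 throughout, are not drawn.

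Transcript starts and transcript ends gave the same level within 1% in 410 of 485 cases (84.5%). ddx-15, the homologue of the Prp43 helicase that takes spliceosomes apart after splicing, departed from this most often among well-listed genes: its ends and starts differed in all 18 libraries, with ratios of 0.14 to 1.99. lsm-3 differed in 9 of 18 libraries, with ratios of 0 to 5.21, prp-4 in 8 of 18 and lsm-4 in 10 of 17. Levels and differences below are by starts, and those by ends are given where the 2 measures part.

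Differences between strains were tested on log2(FPKM + 1) with limma over all 18 libraries, for genes with a mean of at least 1 FPKM that were named alone in 2 or more libraries per strain compared. Of the 45 spliceosome genes, 29 entered at least 1 of the 10 comparisons, 22 entered all of them and 16 entered none. A gene was called where its p, adjusted over all genes of a comparison, was under 0.05. By that rule 0 spliceosome genes were called in any comparison, and what follows are values that did not pass it.

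For uaf-1(n4588) in an otherwise wild-type background, the median log2 change of the spliceosome genes was near that of all genes. Of 24 tested, 0 were called by limma, where 0.178% of all genes were, and 0 had an unadjusted p under 0.05, where 6.0% of all genes did. Their median log2 change was -0.04, against -0.06 over all genes, with 11 above 0 and 13 below. The libraries of both strains did not overlap for 2 of the 24 genes, where the background was 17.4%.

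Those 2 genes encode the largest proteins of the U5 snRNP. prp-8, the scaffold of the catalytic centre, had 102, 89.2 and 105 FPKM in uaf-1(n4588) and 126, 140 and 117 FPKM in wild type. The log2 difference was -0.37 (SE 0.20, unadjusted p = 0.0865, adjusted p = 0.902, limma). snrp-200, the homologue of the Brr2 helicase that unwinds U4 from U6, had 75.5 and 76.02 FPKM in 2 wild-type libraries and 67.3, 60.9 and 61.8 FPKM in uaf-1(n4588). By starts all uaf-1(n4588) libraries lay below all wild-type libraries for both genes. By transcript ends this held for prp-8 only: the ends of snrp-200 gave 60.9 to 105 FPKM in uaf-1(n4588), which spans wild type, and a log2 difference of -0.0056. emb-4, which had the next smallest p, overlapped, with 27.3, 30.3 and 44.6 FPKM in uaf-1(n4588) and 40.5, 60.3 and 52.9 FPKM in wild type (log2 difference -0.59, unadjusted p = 0.104, limma). By ends its difference was -0.083.

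Against rbm-5(n5119), the n5119 combination adds uaf-1(n4588), and 26 spliceosome genes were tested. None was called (0, against 0.136% of all genes), and 1 had an unadjusted p under 0.05 by limma, against 4.21% of all genes. That gene was ddx-15, with 82.6, 107 and 151 FPKM in rbm-5(n5119) and 309, 142.2 and 174 FPKM in the n5119 combination (log2 difference 0.84, unadjusted p = 0.0182, adjusted p = 0.904). The groups overlapped, and by transcript ends the difference was -0.26. Without replicate 1 of the combination it was 0.51 by starts (unadjusted p = 0.115, limma). The median over the spliceosome genes was 0.10, against 0.06 over all genes. Libraries did not overlap for prp-8 and lsm-5, both lower in the combination, which is 2 of 26 against a background of 8.68%. prp-8 had 175, 139 and 189 FPKM in rbm-5(n5119) and 134 and 110 FPKM in the combination (log2 difference -0.45, unadjusted p = 0.0652, limma).

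Against rbm-5(n5132), the n5132 combination gave 0 calls among 26 spliceosome genes by limma, against 0.036% of all genes, and 2 unadjusted p under 0.05, against 5.26%. Those 2 were lsm-3, whose listed first exons differ as described above, and sftb-1, which encodes the SF3b subunit that clamps the branch point helix. sftb-1 had 101, 94.6 and 96.0 FPKM in rbm-5(n5132) and 115, 134 and 144 FPKM in the combination (log2 difference 0.42, SE 0.19, unadjusted p = 0.0403, adjusted p = 0.906, limma). Libraries did not overlap for 4 of the 26 genes, against a background of 16.0%: lsm-3 and lsm-7 were lower in the combination, and sftb-1 and skp-1, the SNW1 homologue, were higher. The median was 0.15, against -0.10 over all genes.

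Averaged over the 3 backgrounds, uaf-1(n4588) gave 0 calls among 22 spliceosome genes by limma, where 0.67% of all genes were called, and 0 with an unadjusted p under 0.05, where 7.1% of all genes had one. The smallest p was 0.0791, for ddx-15, at a log2 difference of 0.34, which was -0.20 by transcript ends. The next were teg-4, the SF3B3 homologue, at 0.22, lsm-7 at -2.17 (SE 1.91), prp-4 at 0.14 and sftb-1 at 0.11. Leaving out 1 library moved lsm-7 to -1.07 (uaf-1(n4588) replicate 3) or -1.05 (replicate 2 of the n5119 combination), and by ends teg-4 was -0.55, prp-4 -0.050 and sftb-1 0.017. The median was 0.02, against -0.03 over all genes.

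The rbm-5 alleles alone were each compared with the same 3 wild-type libraries, so that the values of both comparisons stand side by side and are not independent. For rbm-5(n5119), 0 of 25 genes were called by limma (0.0234% of all genes) and 1 had an unadjusted p under 0.05 (5.75% of all genes). For rbm-5(n5132), 0 of 25 were called (0.0115% of all genes) and 1 had an unadjusted p under 0.05 (4.96% of all genes). It was the same gene in both, mog-3, the homologue of the second step factor Cwc25.

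mog-3 had 62.8, 58.9 and 91.02 FPKM in wild type, 81.4, 108 and 152 FPKM in rbm-5(n5119) and 123, 103 and 103 FPKM in rbm-5(n5132). The rbm-5(n5119) libraries overlapped wild type in 1 library, and the rbm-5(n5132) libraries were all above it. The log2 differences were 0.66 (SE 0.26, unadjusted p = 0.0253, adjusted p = 0.647, limma) and 0.65 (SE 0.26, unadjusted p = 0.0267, adjusted p = 0.977, limma). Without rbm-5(n5119) replicate 3 the first was 0.42 (unadjusted p = 0.122, limma), and with every library scaled to 1 median it was 1.12. The lowest wild-type value, 58.9 FPKM, came from a start just upstream of the annotated gene. Next in rbm-5(n5119) came prp-8, at 0.38 (unadjusted p = 0.0767, limma), and next in rbm-5(n5132) snr-7, at 2.37 (SE 1.11, unadjusted p = 0.0603, limma), which was 1.43 without rbm-5(n5132) replicate 1. Libraries did not overlap for 1 gene in rbm-5(n5119), snrp-200, against a background of 14.4%. In rbm-5(n5132) they did not overlap for 4 genes, mog-3, snr-7, mog-5 and mog-4, all higher than in wild type, against a background of 13.2%. The medians of the spliceosome genes were 0.21 and 0.22, against -0.23 and -0.01 over all genes.

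The rbm-5 alleles were also compared in the uaf-1(n4588) background, where both combinations share the uaf-1(n4588) libraries as their reference. For the n5119 combination, 0 of 25 genes were called by limma (0.0244% of all genes) and 3 had an unadjusted p under 0.05, all higher (4.92% of all genes). For the n5132 combination, 0 of 24 were called (0.0854% of all genes) and 5 had an unadjusted p under 0.05, all higher (7.73% of all genes). The median log2 differences were 0.30 and 0.32 in the spliceosome genes, against -0.14 and -0.02 over all genes.

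By starts, several spliceosome genes had all libraries of a combination above all uaf-1(n4588) libraries, and none had them all below. For the n5119 combination there was no overlap for 9 of 25 genes, where 16.8% of all genes did not overlap and 8.22% did so with the combination higher. They were ddx-15, sftb-1, snrp-200, prp-8, emb-4, cdc-5L, mog-7, prp-17 and gut-2. By transcript ends 5 of them remained without overlap, sftb-1, prp-8, cdc-5L, prp-17 and gut-2, where 8.15% of all genes did not overlap with the combination higher. For the n5132 combination there was no overlap for 7 of 24 genes, where 19.5% of all genes did not overlap and 9.95% did so with the combination higher. They were sftb-1, snrp-200, prp-8, cdc-5L, mog-3, mog-5 and skp-1. By ends 4 remained, sftb-1, cdc-5L, mog-5 and skp-1, where 9.88% of all genes did not overlap with the combination higher. Most of these are among the longer genes, whose median spread was 0.29 against 0.52 for the longer genes of the series. The part of this lower spread in the counts was not tested.

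sftb-1 came nearest to a call. It had 71.0, 107 and 92.2 FPKM in wild type (89.96 ± 17.9, SD, n = 3) and 66.8 and 78.1 FPKM in the 2 uaf-1(n4588) libraries that named it. The n5119 combination had 128, 128 and 95.7 FPKM, and the n5132 combination 115, 134 and 144 FPKM. Both rbm-5 single mutants lay between, at 100 ± 2.62 FPKM and 97.2 ± 3.35 FPKM (SD, n = 3). Against uaf-1(n4588) the log2 difference was 0.85 for the n5132 combination (SE 0.21, unadjusted p = 0.0013, adjusted p = 0.253, limma) and 0.68 for the n5119 combination (SE 0.21, unadjusted p = 0.00604, adjusted p = 0.817). The test of the difference itself, the effect of rbm-5 in uaf-1(n4588) less that in wild type, gave 0.61 (SE 0.25, unadjusted p = 0.0273, adjusted p = 0.9998, limma). By ends the differences from uaf-1(n4588) were the same 0.85 and 0.68, and the last value was 0.47.

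snrp-200 and prp-8 of the U5 snRNP were among these genes by starts, and less so by ends. snrp-200 had 133 and 84.4 FPKM in the n5119 combination and 82.4, 109 and 107 FPKM in the n5132 combination, against 60.9 to 67.3 FPKM in uaf-1(n4588). Its log2 differences were 0.74 (unadjusted p = 0.0104) and 0.63 (unadjusted p = 0.0128, adjusted p = 0.542, limma). prp-8 had 117, 156 and 160 FPKM in the n5132 combination, against 89.2 to 105 FPKM in uaf-1(n4588), a log2 difference of 0.53 (unadjusted p = 0.0193, adjusted p = 0.568, limma). By ends the n5132 combination overlapped uaf-1(n4588) for both genes. The ends of snrp-200 gave log2 differences of 0.48 and 0.38, and those of prp-8, at 56.8 to 160 FPKM in the n5132 combination, gave 0.053.

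cdc-5L and emb-4 of the Prp19 and related complexes also had higher means in both combinations than in uaf-1(n4588). cdc-5L, the CDC5L homologue, had 96.0 and 105 FPKM in 2 uaf-1(n4588) libraries, 159, 169 and 136 FPKM in the n5119 combination and 136, 199 and 202 FPKM in the n5132 combination. Wild type, with 92.6, 174 and 216 FPKM, spanned all of these. emb-4 had 59.9, 55.3 and 45.9 FPKM in the n5119 combination and 38.3, 52.4 and 107 FPKM in the n5132 combination, the latter overlapping uaf-1(n4588). The log2 difference of the n5132 combination from uaf-1(n4588) was 0.80 for cdc-5L (unadjusted p = 0.043) and 0.83 for emb-4 (unadjusted p = 0.0278), with adjusted p of 0.626 and 0.571 (limma). By ends cdc-5L was the same, whereas emb-4 had 44.6 to 52.4 FPKM in uaf-1(n4588) and a log2 difference of 0.55, with 0.16 for the n5119 combination.

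ddx-15 had the smallest p in the n5119 combination, but its starts and ends differed. It had 68.8, 94.8 and 115 FPKM in uaf-1(n4588) and 309, 142.2 and 174 FPKM in the combination by its starts (log2 difference 1.11, SE 0.31, unadjusted p = 0.00325, adjusted p = 0.817, limma). By transcript ends the difference was 0.03. uaf-1 itself, whose product is the U2AF subunit altered in these strains, showed a like order by its starts, with 67.1 to 124 FPKM in uaf-1(n4588), 138 to 166 FPKM in the n5119 combination and 141 to 210 FPKM in the n5132 combination.

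**Figure D3:**
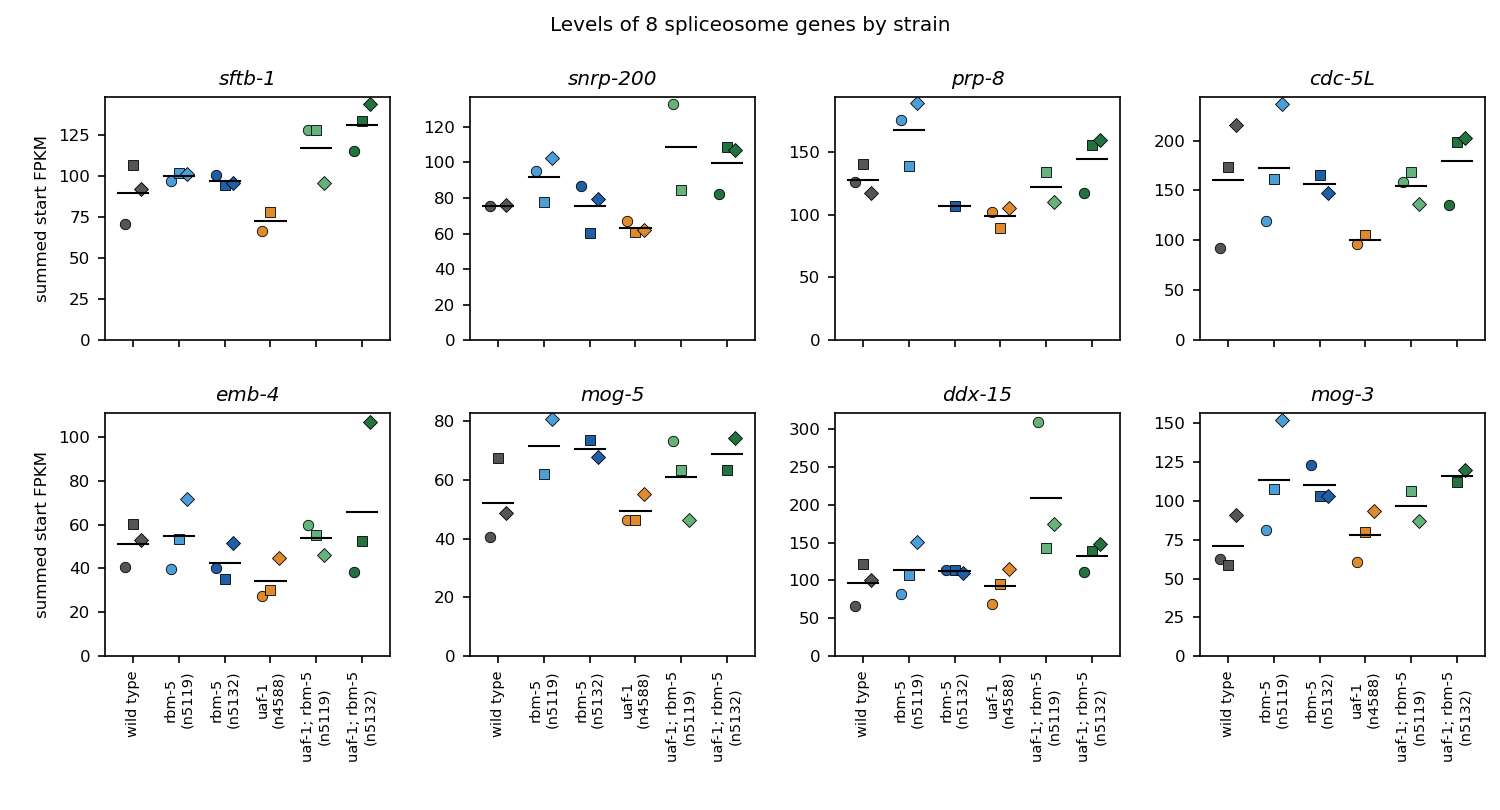
Summed start FPKM of 8 spliceosome genes with small unadjusted p-values, 1 panel per gene, by strain. Circles, squares and diamonds are replicates 1, 2 and 3 and the line is the mean of the libraries that named the gene alone. In uaf-1(n4588) the libraries of sftb-1 (66.8 and 78.1 FPKM) and snrp-200 (60.9 to 67.3 FPKM) lie below those of both combinations, whereas ddx-15 in the n5119 combination is spread from 142.2 to 309 FPKM.

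Averaged over alleles and backgrounds, the rbm-5 mutations gave 0 calls among 22 spliceosome genes by limma (0.0279% of all genes), and 5 had an unadjusted p under 0.05 (9.28% of all genes). All 5 were higher in the rbm-5 mutants, where 4.12% of all genes had such a p and were higher. They were sftb-1 at a log2 difference of 0.46 (unadjusted p = 0.00254), mog-3 at 0.55 (unadjusted p = 0.00531), ddx-15 at 0.53 (unadjusted p = 0.0144), snrp-200 at 0.40 (unadjusted p = 0.0172) and mog-5, the homologue of the Prp22 helicase that releases spliced mRNA, at 0.42 (unadjusted p = 0.0203). The adjusted p was 0.513 for each of the 5. By transcript ends ddx-15 was at 0.056 (unadjusted p = 0.848, limma), snrp-200 at 0.28 (unadjusted p = 0.125) and mog-3 at 0.43, and the other 2 were at 0.53 and 0.42. The rbm-5 mutant libraries lay all to one side of the others in 0 of the 22 genes, against 0.0419% of all genes.

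The sign of that average was not the same in every role, and no test of a difference between roles was made. The log2 difference was above 0 in 16 of 22 genes, against 38.9% of all genes. It was above 0 in 3 of 3 helicases, 3 of 3 genes of the Prp19 and related complexes, 3 of 3 of the tri-snRNP, 3 of 3 second step and disassembly factors and 3 of 4 of SF3a and SF3b. It was above 0 in 1 of 5 LSm genes and 0 of 1 Sm genes. The median was 0.26, against -0.13 over all genes. With every library scaled to 1 median over genes the medians became 0.52 and 0.03. rbm-5(n5119) replicate 3 and replicate 1 of the n5119 combination had the lowest all-gene medians of the series, and without both the medians were 0.23 and -0.05.

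**Figure D4:**
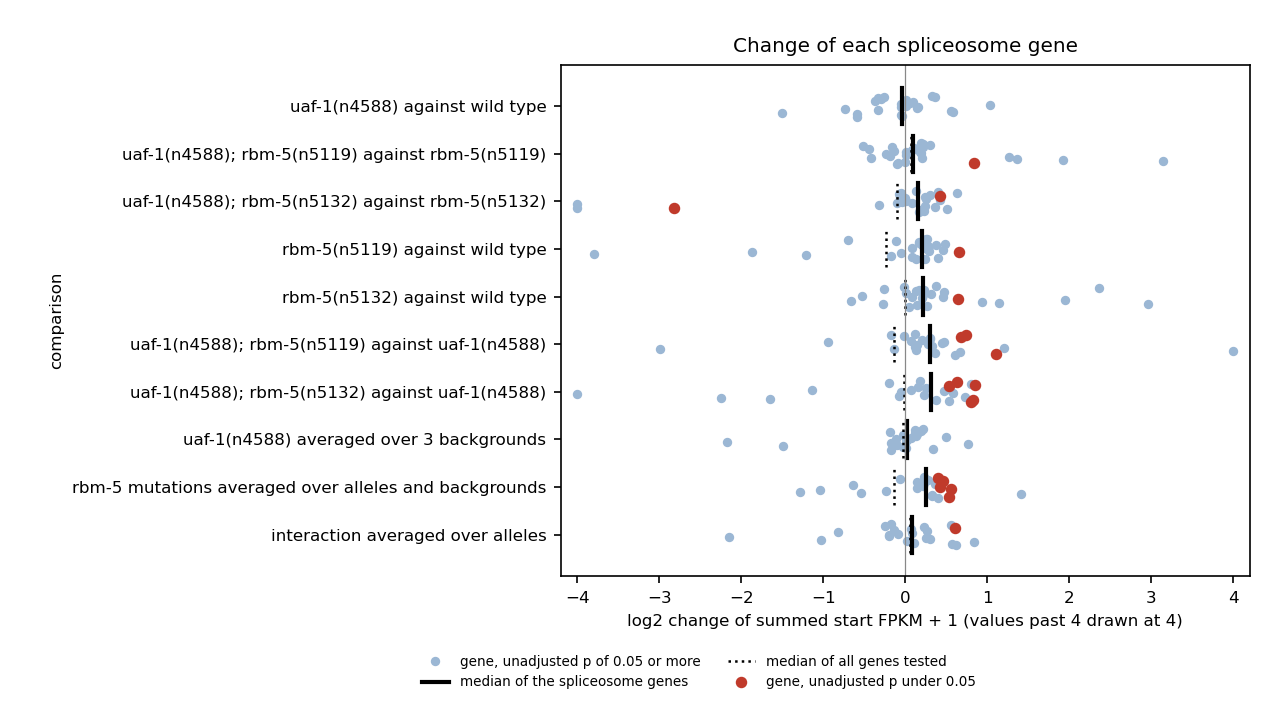
Log2 difference of each tested spliceosome gene, 1 point per gene, in each of the 10 comparisons, red where the unadjusted p was under 0.05. Differences past 4 in size are drawn at 4, the solid bar is the median of the spliceosome genes and the dotted bar that of all genes. The bars stand together for uaf-1(n4588) against wild type (-0.04 and -0.06) and apart for the rbm-5 mutations on average (0.26 and -0.13).

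The effect of rbm-5 in uaf-1(n4588) less its effect in wild type gave 0 calls among 22 genes by limma (0.014% of all genes), and 1 unadjusted p under 0.05, that of sftb-1 (3.38% of all genes). After sftb-1 the smallest p by limma belonged to emb-4 (0.84, unadjusted p = 0.0616), snrp-200 (0.56, unadjusted p = 0.0788), ddx-15 (0.57, unadjusted p = 0.162) and cdc-5L (0.62, unadjusted p = 0.172). By ends sftb-1 was at 0.47, emb-4 at 0.20, snrp-200 at 0.31 and ddx-15 at 0.63. Leaving out 1 wild-type library moved cdc-5L to 0.97 (replicate 1) or 0.37 (replicate 3), and ddx-15 was 0.38 without wild-type replicate 2 and 0.37 without uaf-1(n4588) replicate 1. The median was 0.08, against 0.06 over all genes.

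Splicing of the spliceosome genes' own transcripts was read from the listed events. Skipped exons and retained introns were listed with the FPKM of an including and an excluding form. For an alternative exon end only the form itself was listed, and the rest of its locus's start FPKM was taken as excluding. The listed forms numbered 65 in 17 genes: 24 retained introns, 22 alternative exon ends, 14 skipped exons, 3 sets of retained introns and 2 sets of skipped exons. Of these, 39 were in 1 library, 14 in 2, 8 in 3 to 5, and 4 in 10 or more. An annotated exon or intron was at the centre of 35. Each library listed 4 to 15. The share is the including FPKM divided by the sum of including and excluding FPKM.

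The 4 events in 10 or more libraries were in prp-17 (forms of 1 exon with different acceptors), snrp-200 and snr-3. All 4 could be tested in 2 comparisons, and in 5 of the 10, including the 3 averages, the only one tested was that of snr-3, which is uninformative as described below. In the other 5 comparisons the events of prp-17 and snrp-200 gave 10 tests, of which 0 were called by limma and 0 had an unadjusted p under 0.05. Of all splicing events, those called were 0.473% for uaf-1(n4588) against wild type, 0.627% and 0.265% for uaf-1(n4588) in rbm-5(n5119) and in rbm-5(n5132), and 2.81% on average over backgrounds. Called for the rbm-5 mutations were 0.0% for each allele against wild type, 0.0% and 0.0313% for n5119 and n5132 in uaf-1(n4588), 0.0402% on average and 0.0% for the interaction. At an unadjusted p under 0.05 the background, in the same order, was 7.23%, 6.4%, 8.16%, 12.3%, 5.5%, 4.66%, 4.23%, 5.45%, 6.39% and 3.62%.

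prp-17, the homologue of the second step factor Cdc40, was listed with alternative acceptors of 1 exon. The annotated exon begins at I:10939514 (plus strand), and the other form begins at 10939608, 94 bases downstream, a distance that leaves a remainder of 1 when divided by 3. The form with both annotated ends, 10939514 to 10939733, had a share of 0.570 and 0.600 in 2 wild-type libraries, 0.601 in 1 of rbm-5(n5119) and 0.528 in 1 of rbm-5(n5132). It had 0.346, 0.588 and 0.629 in uaf-1(n4588), 0.336 and 0.577 in the n5119 combination, and 0.798 and 0.630 in the n5132 combination. The low shares in uaf-1(n4588) and the n5119 combination were both of replicate 1. Those libraries listed a further form at shares of 0.469 and 0.502, with its donor at 10939738, 5 bases beyond the annotated end. That form begins at the annotated acceptor too, so the low shares do not show a lower use of this acceptor. The log2 ratio of the annotated form to the rest of its locus differed by -0.37 between uaf-1(n4588) and wild type (SE 0.72, unadjusted p = 0.625, limma), within the spread of the libraries. It counts the further form against the annotated one and so does not test acceptor use. The ratio of the form with the downstream acceptor differed by -0.62 (SE 0.77, unadjusted p = 0.448, limma).

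snrp-200 was listed with an exon of 310 bases at II:12730650-12730959 (minus strand) that was included or skipped in 12 libraries. Its share was 0.377 and 1 in wild type, 0.411 in rbm-5(n5119), 0.462, 0.375 and 0.606 in rbm-5(n5132), and 0.494, 0.397 and 0.554 in uaf-1(n4588). It was 1 in the only listing of the n5119 combination, and 0.504 and 1 in the n5132 combination. In the 3 libraries at a share of 1 the skipping form was listed at 0, and those libraries also listed the exon with its donor 17 bases earlier, at 12730667. Between the n5132 combination and uaf-1(n4588) the log2 ratio differed by 3.15 (SE 1.93, unadjusted p = 0.141, limma), and the skipping form was at 0 in 1 of the 2 libraries of the combination.

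**Figure D5:**
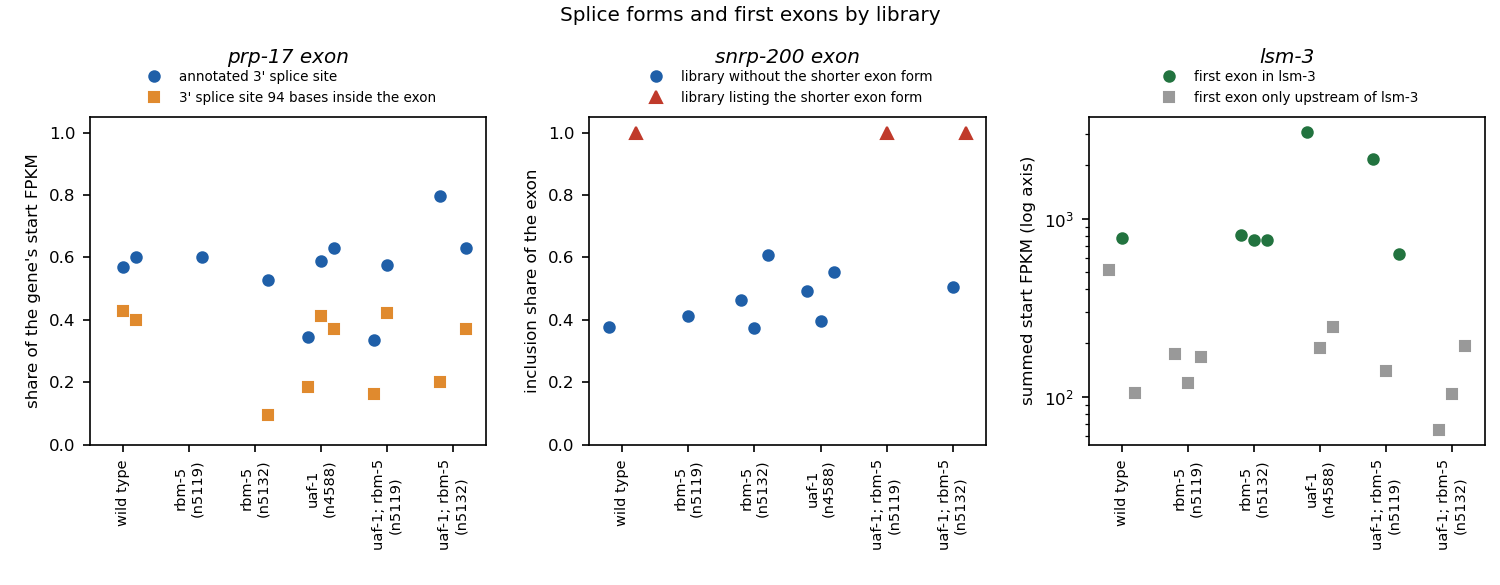
Forms of 3 spliceosome transcripts by library, for the 6 strains. The panels give the shares of the prp-17 exon forms with the annotated and the downstream acceptor, and the share of the snrp-200 exon. The last panel gives the level of lsm-3 by starts, marked by the place of its first exon. Each point is 1 library. The snrp-200 exon lies between 0.375 and 0.606 except for 3 libraries at 1. By starts lsm-3 is lower where its first exon lies upstream (65.1 to 515 FPKM) than where it lies in the gene (633 to 3074 FPKM).

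snr-3 was listed in all 18 libraries with a skipped form of the exon at II:6489356-6489460, and that form was at 0 in every library. Its ratio therefore followed the level of the gene and carried no information on splicing. The other recurrent events were listed in 3 to 5 libraries each and could not be tested. In prp-21, the SF3A1 homologue, an exon of 137 bases at II:489890-490026 that is not annotated was listed in 3 libraries, 1 of each strain with uaf-1(n4588), at shares of 0.196 to 0.245. In sftb-1 an intron of 49 bases was retained in 3 libraries, all of strains with rbm-5(n5132), at shares of 0.136 to 0.192. Besides libraries with rbm-5(n5132), other sftb-1 introns were retained in 1 of wild type (0.491) and 1 of uaf-1(n4588) (0.639). In mog-1, the Prp16 homologue, an intron of 43 bases was retained in 1 library each of rbm-5(n5119) and both combinations (0.356 to 0.416). For mog-1, 2 of these had a joined name. In prp-4 an intron of 42 bases was retained in 1 library each of rbm-5(n5132) and both combinations (0.169 to 0.281). In emb-4 an exon of 341 bases at V:18872626-18872966 was listed in 5 libraries of 5 strains at shares of 0.571 to 0.762. A listing in so few libraries does not show that the form was absent from the others.

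A list of 47 other splicing genes (SR proteins, hnRNPs and further factors) was tested in the same way. Of these, 41 were listed alone in at least 1 library and 19 to 24 were tested per comparison. Called were 0 in any comparison (limma), where 0.0115% to 0.67% of all genes were. An unadjusted p under 0.05 occurred for 0 to 2 per comparison, where 3.38% to 9.28% of all genes had one. Their median for the rbm-5 mutations on average was 0.20, beside 0.26 for the core spliceosome genes, and no test of that difference was made.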

How the data were processed

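Total RNA of embryos was sequenced in 18 libraries. The authors deposited, per library, a list of transcript starts, transcript ends and splicing events with FPKM values. Reads were aligned with TopHat2 2.0.12 and Bowtie2 to WBcel235, per the submitters' processing notes. The assembler and event caller are not given in the sources used here, the values cannot be turned back into counts, and no interval for counting error can be given. A library's start FPKM were summed per gene over loci naming that gene alone, matched to annotation release 115 of the same build. The members and lists were chosen with earlier results of these data known. Levels were tested as log2(FPKM + 1) with limma 3.58.1 (R 4.3.3), with a mean-variance trend, 1 mean per strain over all 18 libraries, two-sided tests and Benjamini-Hochberg adjustment over all genes of a comparison. Log2 differences on this scale understate changes of low values. A library that did not name a gene alone was left out of that gene's fit. Events were tested as log2 of the ratio of including to excluding FPKM, each plus 1, and events with a variable flank were left out. The fits were tested on simulated data for uaf-1(n4588) against wild type. They called 18% of genes given a log2 change of 1 and 68% of those given 2. For splicing events they called 0% and 20%. A count of 0 called therefore does not show that no gene or event changed. Genes were named by rule: the smallest p per comparison (5 for averages, 2 for pairs), the 3 highest and 3 lowest means, the highest per role, members at 0 throughout 1 strain only, and all genes with events. Other genes in the text were chosen after their values were seen. Replicate numbers were checked for pairing. Libraries of the same number deviated together in every pair for uaf-1(n4588) against wild type (correlations 0.304, 0.162 and 0.117) and for the n5132 combination against rbm-5(n5132) (0.411, 0.177 and 0.232). Some libraries of different number did so about as much. The highest such correlation was 0.141 for uaf-1(n4588) replicate 3 and 0.166 for replicate 2 of the n5132 combination. The alternatives were another pseudocount, filter, scaling, transcript ends, a replicate block and leaving out each library.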

Additional observations from a re-analysis of the deposited data

Results flagged for a closer look

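rnp-7, the homologue of U1-70K, was named alone in 2 libraries, both of rbm-5(n5132), and in none of wild type. Both listed a retained intron with a variable flank at III:7160956-7161001, a kind of event outside the tested ones, with up to 85.8 FPKM (lowest 56.1 FPKM). It is given because it appeared in data that entered no comparison and had no value in the control samples. No wild-type library named rnp-7 alone, so its strains were not compared.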

How the results depend on the processing

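The count of spliceosome genes called stayed at 0 under 29 alternative settings of the gene tests, and that of events, few of which could be tested, at 0 under 26, with lowest adjusted p of 0.184 and 0.47. These include the replicate block, which called 0 members in any comparison (for the other 5 pairs of strains some same-numbered libraries did not deviate together). Of 1006 alternative values of named genes and events, 997 kept their direction and side of the threshold. By transcript ends, ddx-15 became -0.20 for uaf-1(n4588) on average and -0.26 for the n5119 combination against rbm-5(n5119), and on average prp-4 became -0.050 and teg-4 -0.55. Leaving out single uaf-1(n4588) libraries moved the annotated prp-17 form, with its acceptor at 10939514, against wild type to between -0.68 and 0.14, and with replicates 2 and 3 only it was 0.14. The form with the acceptor at 10939608 then ranged from -0.76 to 0.032 in the n5119 combination against uaf-1(n4588) and from -0.72 to 0.067 in the n5132 combination, for which the replicate block gave 0.090. The causes were not tested. Scaling to 1 median moved the all-gene median of rbm-5(n5119) against wild type from -0.23 to 0.16. It turned the median of the n5119 combination against rbm-5(n5119) from 0.10 to -0.07. Leaving out both libraries with most entries at 0, and scaling with the replicate block, were chosen after seeing the data. Depth is unknown, and the median spread was larger in short genes.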
